A study of Mus musculus with 12 samples.

Results

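Stat5-null mouse embryonic fibroblasts that had received a retroviral STAT5A vector (S5) were compared with Stat5-null fibroblasts (KO). All 8 S5 and KO arrays of the 12 in the series were used, 4 per genotype, with growth hormone kept as a term of the fit, so that untreated and treated arrays were pooled. The 6 groups of the series, of 2 arrays each, were S5, KO and wild-type (WT) C57BL/6 embryonic fibroblasts, either without treatment or after 120 minutes of growth hormone. S5 and KO cells share the deletion of both Stat5 genes, and neither the promoter nor the species of the vector's STAT5A is given in the sources used here. The labels name no vehicle and no KO cells with an empty vector. Each genotype stands for its own cells, so the vector and the preparation of the cells cannot be told apart. The duplicates are called biological without saying that they came from separate cultures, so the p-values measure only the spread between these arrays.

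STAT5A and STAT5B are transcription factors that cytokine and growth hormone receptors activate through the kinase JAK2. Activated STAT5 pairs bind short palindromic DNA sites and switch on genes such as those of the feedback inhibitors SOCS2 and CISH. Embryonic fibroblasts, by contrast, carry a positional identity: which Hox genes a fibroblast expresses reflects where in the embryo it arose and is usually kept in culture. Expression levels are given as deposited, on the log2 scale, and differences are S5 minus KO. A gene was called where limma's adjusted p was below 0.05, and values after ± are SEs of that fit unless SD is named. Levels below 4 formed a mode of probe sets without clear signal, here the low mode. Where all 4 arrays of a genotype lay in it, a level of 4 was used for it in the fold, which is then a lower bound, written "at least". Differences and their SEs are of the levels as deposited, without this bound. Where a genotype lay in the low mode, the size of its difference therefore depends on that mode.

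The check of the genotypes came first. The probe set used for Stat5a lay in the low mode in S5 and KO cells, with levels of 2.40, 2.42, 2.36 and 2.34 on the S5 arrays and 2.41, 2.47, 2.43 and 2.38 on the KO arrays, and averaged 11.87 ± 0.46 in WT cells (SD, n = 4). The other Stat5a probe set had levels of 9.86, 9.90, 9.04 and 9.14 on the S5 arrays, against 2.21, 2.25, 2.25 and 2.19 on the KO arrays. It was high on S5 arrays alone, since its WT mean was 2.30, and it differed by 7.26 ± 0.16 between S5 and KO cells (limma over all probe sets, adjusted p = 1.44e-06). Stat5b was in the low mode in S5 and KO cells, with means of 1.95 ± 0.01 in S5 cells and 1.96 ± 0.04 in KO cells, and averaged 9.19 ± 0.20 in WT cells. The RNA for Xist, which silences 1 X chromosome in female cells, was present at 10.74 ± 0.32 in S5 cells and 10.50 ± 0.15 in KO cells, against 2.78 ± 0.25 in WT cells, and the Y-linked genes Eif2s3y, Kdm5d and Uty lay in the low mode in S5 and KO cells and between 8.30 and 12.29 on average in WT cells. S5 and KO cells thus shared these marks and WT cells did not.

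Of 18193 genes, 6198 were called (34.1% of those tested), 3387 of them higher in S5 cells (18.6%) and 2811 lower (15.5%). A difference of at least 2-fold was called for 2339 genes (12.9%), 1199 higher (6.59%) and 1140 lower (6.27%). Of the 2339, 78 had both means in the low mode. At least a 16-fold difference was called for 421 genes (2.31%). Among the 11079 genes above the low mode in S5 or KO cells, 53.8% were called and 20.4% were called at least 2-fold apart. Gene lists with few members in the low mode are better read beside these last shares. Across genes, S5 arrays correlated with KO arrays at r between 0.830 and 0.847, while S5 arrays correlated with each other at 0.977 to 0.996 and KO arrays with each other at 0.987 to 0.993. S5 arrays correlated with WT arrays at 0.842 to 0.865, and KO arrays with WT arrays at 0.907 to 0.928. Genes are not independent replicates, and these r values describe the arrays. The Gapdh 3′ minus 5′ control probe difference averaged 1.52 ± 0.08 on S5 arrays, against 1.04 ± 0.08 on KO arrays (SD, n = 4 each). That of Actb averaged 3.09 ± 0.05 and 2.96 ± 0.17, and its S5 and KO arrays overlapped. The part of these controls in the differences was not tested.

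The difference between the genotypes was also read separately without and with the hormone. On untreated arrays 4523 genes were called (24.9%) and on growth hormone arrays 4803 (26.4%), and of 3588 called on both, 3570 had the same sign. Of 2133 genes called at least 2-fold apart on untreated arrays, 98.9% had the same sign and 84.4% were at least 2-fold apart the same way on the growth hormone arrays, which are separate arrays. Among all genes above the low mode, 85.1% had the same sign. The 2 differences were themselves tested against each other, and 114 genes passed (0.627%).

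The largest differences were between presence and absence. In 12 of the 15 genes with the largest rise, all 4 KO arrays lay in the low mode, and in 11 of the 15 with the largest fall all 4 S5 arrays did. Coch, which encodes the matrix protein cochlin, had levels of 13.41, 13.51, 13.34 and 13.28 on the S5 arrays, against 2.34, 2.24, 2.21 and 2.35 on the KO arrays. S5 cells were at least 669-fold higher (difference 11.10 ± 0.05, adjusted p = 1.39e-09). Cxcl14, a chemokine of skin and other epithelia, had levels of 13.36, 13.31, 13.74 and 13.74 on the S5 arrays, against 2.25, 2.42, 2.37 and 2.89 on the KO arrays, and S5 cells were at least 743-fold higher (difference 11.05 ± 0.11, adjusted p = 3.47e-08). That S5 and KO arrays do not overlap was part of the rule that chose these genes, and it held for 5370 of the 6198 called genes.

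Other secreted and signalling genes were among the largest rises. The chemokine gene Cxcl15 was at least 617-fold higher in S5 cells (11.07 ± 0.04), and Hpgd, the enzyme that inactivates prostaglandins, at least 566-fold (10.86 ± 0.15). Sfrp2, a secreted inhibitor of Wnt ligands, had levels of 13.61, 13.49, 12.78 and 12.90 on the S5 arrays, against 5.27, 4.32, 4.60 and 4.43 on the KO arrays, a 373-fold rise. Tnn, the matrix glycoprotein tenascin-N, rose by 8.56 ± 0.09, Stmn2, a microtubule-binding protein of neurons, by 8.94 ± 0.36, and the calcium channel gene Cacna1h by 8.26 ± 0.04. The largest adjusted p among the 15 rises was 1.66e-05.

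**Figure D1:**
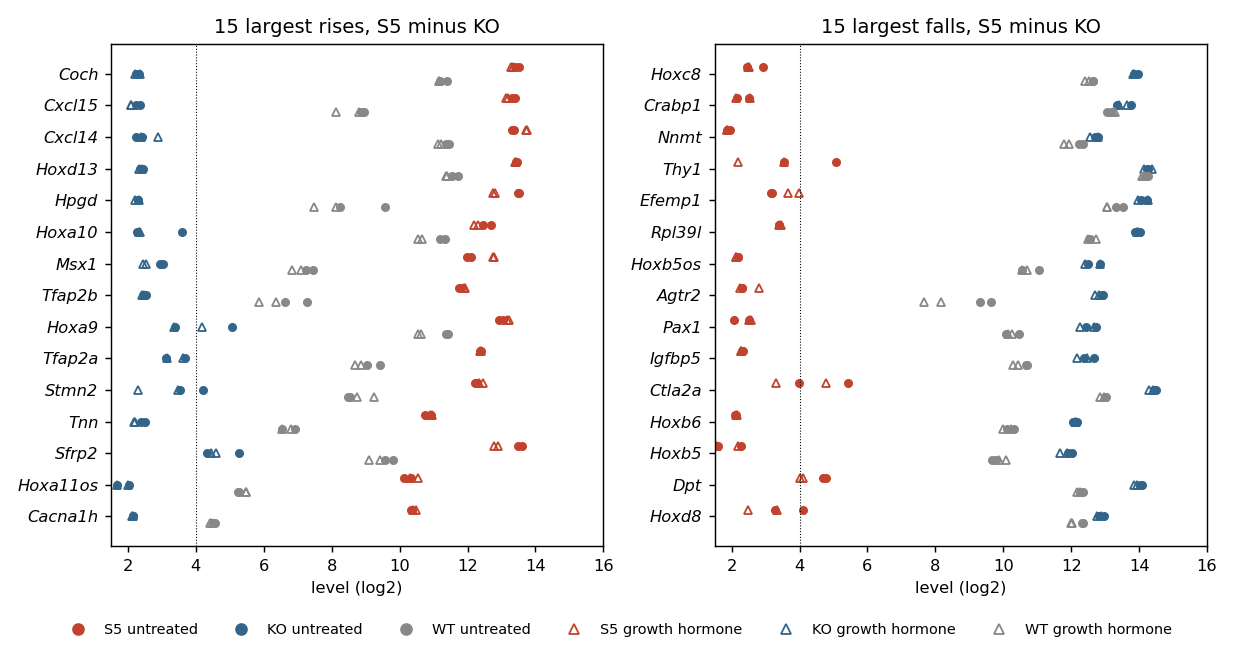
Levels on the log2 scale (x axis) by array, of the 15 genes that rose most and the 15 that fell most in S5 against KO cells. Filled circles are untreated arrays, open triangles growth hormone arrays, and the dotted line is the bound of the low mode at 4. The WT means lie between the S5 and KO means for all 15 rises and all 15 falls, genes chosen for wide gaps that leave little room outside them.

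Among the falls, Crabp1, which binds retinoic acid in the cytoplasm, had levels of 2.16, 2.51, 2.14 and 2.54 on the S5 arrays, against 13.77, 13.34, 13.42 and 13.63 on the KO arrays. It was at least 746-fold lower in S5 cells (difference -11.20 ± 0.15, adjusted p = 7.89e-08). Thy1, the surface protein by which many fibroblasts are recognised, had levels of 5.09, 3.53, 2.20 and 3.55 on the S5 arrays, against 14.26, 14.23, 14.39 and 14.14 on the KO arrays. The S5 arrays spread widely around the low mode, and all lay far below the KO arrays (difference -10.66 ± 0.51, adjusted p = 2.27e-05). Nnmt, which methylates nicotinamide, differed by -10.82 ± 0.05, the fibulin gene Efemp1 by -10.63 ± 0.16, the angiotensin receptor gene Agtr2 by -10.43 ± 0.14 and the ribosomal protein gene Rpl39l by -10.54 ± 0.04. Igfbp5, a binding protein of insulin-like growth factors, differed by -10.11 ± 0.09, Ctla2a, a cysteine protease inhibitor, by -10.05 ± 0.43, and Dpt, the matrix protein dermatopontin, by -9.57 ± 0.11. The largest adjusted p among the 15 falls was 2.27e-05.

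The motif TTCNNNGAA, which STAT5 pairs can bind and which reads the same on both strands, was searched in windows from 250 bases before to 50 after each RefSeq gene start (GRCm38.p6). It occurred in 7.64% of 877 genes called at least 2-fold higher, in 6.55% of 824 called at least 2-fold lower, in 8.07% of 9013 genes above the low mode and in 8.57% of all 14452 genes with a window. Among the leading genes, 1 of 13 rises and 2 of 9 falls with a window held it. The 250 bases before the start are shown for the rise and a fall that held it, Cxcl14 and Dpt, and for Hoxd13, a leading rise without it. The line for Cish, a known STAT5 target, shows only the 30 bases around a pair of sites at its start. Motifs are in capitals, and a match is a description of the letters.
Cxcl14, chr13:56296552-56296801, minus strand: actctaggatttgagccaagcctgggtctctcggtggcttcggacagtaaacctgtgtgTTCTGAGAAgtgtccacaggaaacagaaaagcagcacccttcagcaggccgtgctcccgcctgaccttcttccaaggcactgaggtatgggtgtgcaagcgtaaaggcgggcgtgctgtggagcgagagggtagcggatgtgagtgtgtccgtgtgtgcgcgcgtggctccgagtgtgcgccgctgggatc
Dpt, chr1:164796413-164796662, plus strand: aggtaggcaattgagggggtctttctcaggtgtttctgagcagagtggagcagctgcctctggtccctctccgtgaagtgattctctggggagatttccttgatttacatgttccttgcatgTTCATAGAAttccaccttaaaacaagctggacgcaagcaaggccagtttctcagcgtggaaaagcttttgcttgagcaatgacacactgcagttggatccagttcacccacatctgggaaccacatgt
Hoxd13, chr2:74667975-74668224, plus strand: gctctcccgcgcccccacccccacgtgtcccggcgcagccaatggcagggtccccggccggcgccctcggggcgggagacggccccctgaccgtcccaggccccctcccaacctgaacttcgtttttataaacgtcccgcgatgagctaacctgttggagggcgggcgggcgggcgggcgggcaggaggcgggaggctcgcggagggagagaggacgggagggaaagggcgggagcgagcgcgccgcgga
Cish, plus strand, at the start: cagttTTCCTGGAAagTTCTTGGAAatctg
In these lines Cxcl14 has a site that begins 191 bases before the start, and Dpt one that begins 128 bases before it.

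Known STAT5 targets were described next. Of 35 measured genes of a list of STAT5 and growth hormone targets, 6 were called higher and 8 lower, beside 18.6% and 15.5% of all genes. Among the 35, 7 differed at least 2-fold, beside 12.9% of all genes. Socs2, a feedback inhibitor of the growth hormone receptor, had levels of 8.88, 8.96, 13.22 and 13.64 on the S5 arrays, against 4.69, 4.64, 5.28 and 5.40 on the KO arrays. Every S5 array was above every KO array, and the treated S5 arrays stood highest (difference 6.17 ± 0.78, adjusted p = 0.00148). Its next probe set, at 4.31, 5.13, 10.79 and 11.07 on S5 arrays and 2.48, 2.52, 2.52 and 2.55 on KO arrays, differed by 5.31 ± 1.27. Cish had levels of 3.45, 3.55, 9.33 and 9.17 on the S5 arrays, against 4.99, 4.76, 4.32 and 4.69 on the KO arrays. The untreated S5 arrays were below and the treated S5 arrays above the KO arrays, so the pooled difference of 1.69 ± 1.24 was not called (adjusted p = 0.344). It was called when each of the 4 groups had its own mean (adjusted p = 0.000195).

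Other members of the list went both ways. Igf1, the growth factor that growth hormone induces in liver, had levels of 6.71, 6.82, 7.62 and 7.41 on the S5 arrays, against 10.73, 10.19, 9.81 and 10.52 on the KO arrays, a 9.01-fold fall (difference -3.17 ± 0.28, adjusted p = 0.000326). Tnfrsf11b, the decoy receptor osteoprotegerin, differed by -3.35 ± 0.35 and Myc, a driver of cell growth, by -2.10 ± 0.36, while Lifr, the receptor of leukaemia inhibitory factor, rose by 1.78 ± 0.13. Bcl6, a transcriptional repressor, had levels of 12.11, 12.23, 11.08 and 10.83 on the S5 arrays, against 12.16, 12.37, 12.28 and 12.26 on the KO arrays, and its difference of -0.71 ± 0.26 was not called (adjusted p = 0.0855), although it was in 4 of the alternative fits. The receptor gene Ghr and the kinase gene Jak2 differed by 0.09 ± 0.03 and 0.13 ± 0.05 and were not called, although Ghr was in 2 of the alternative fits and Jak2 in 3. Of 41 JAK-STAT components, 12 were called higher and 8 lower, and 5 differed at least 2-fold (12.2%, near the 12.9% of all genes). Of the 41, 33 were above the low mode, where the share at least 2-fold apart was 20.4%.

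**Figure D2:**
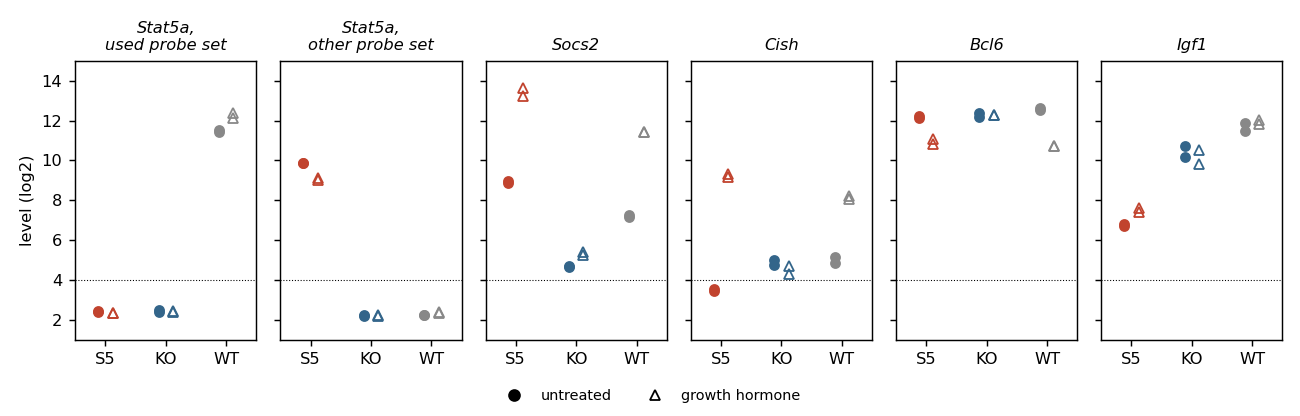
Levels on the log2 scale (y axis) of both Stat5a probe sets and of Socs2, Cish, Bcl6 and Igf1 by genotype, with untreated arrays as filled circles and growth hormone arrays as open triangles. Socs2 is above KO on all 4 S5 arrays, at 8.88 or more, and the other Stat5a probe set is above the dotted bound of the low mode on S5 arrays alone.

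Hox genes, the transcription factors that set position along the body and limb axes, fell in every Hoxb and Hoxc gene above the low mode and went both ways in the Hoxa and Hoxd clusters. Of 33 measured, 23 were above the low mode in S5 or KO cells, 6 were called higher and 17 lower, and 22 differed at least 2-fold (66.7%, against 12.9% of all genes), among them Hoxa13, whose means both lay in the low mode. In the Hoxb cluster 0 were called higher and 6 lower, in the Hoxc cluster 0 and 7, in the Hoxa cluster 4 and 1, and in the Hoxd cluster 2 and 3. Counting genes with a mean of at least 4, S5 cells had 8, KO cells 18 and WT cells 25.

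The rises were of Hoxa and Hoxd genes of the 5′ end, which pattern the distal limb and the hind part of the body. Hoxd13 had levels of 13.45, 13.42, 13.40 and 13.42 on the S5 arrays, against 2.36, 2.45, 2.41 and 2.32 on the KO arrays, at least 685-fold higher in S5 cells (difference 11.04 ± 0.03, adjusted p = 2.30e-10). Hoxa10 had levels of 12.47, 12.70, 12.18 and 12.30 on the S5 arrays, against 2.26, 3.59, 2.34 and 2.36 on the KO arrays, at least 341-fold higher (difference 9.78 ± 0.28, adjusted p = 2.61e-06), and Hoxa9, Hoxa11 and Hoxd10 differed by 9.09 ± 0.41, 7.87 ± 0.07 and 2.36 ± 0.25. The antisense transcript Hoxa11os differed by 8.49 ± 0.12. WT cells had Hoxd13 at 11.51 ± 0.16, Hoxa10 at 10.93 ± 0.40 and Hoxd10 at 10.24 ± 0.29 (SD, n = 4).

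The falls took in every Hoxb and Hoxc gene that was above the low mode in KO cells. Hoxc8, a gene of the thoracic region, had levels of 2.46, 2.92, 2.52 and 2.49 on the S5 arrays, against 13.83, 13.97, 13.85 and 13.81 on the KO arrays, at least 934-fold lower in S5 cells (difference -11.27 ± 0.10, adjusted p = 2.26e-08). Hoxb6 had levels of 2.11, 2.11, 2.12 and 2.15 on the S5 arrays, against 12.16, 12.06, 12.11 and 12.14 on the KO arrays, at least 278-fold lower (difference -9.996 ± 0.03, adjusted p = 2.30e-10). Hoxb2, Hoxb3, Hoxb4, Hoxb5 and Hoxb9 differed by -3.41 ± 0.11, -7.94 ± 0.13, -8.52 ± 0.18, -9.96 ± 0.20 and -8.48 ± 0.10, and the antisense transcript Hoxb5os by -10.48 ± 0.12. Hoxc4, Hoxc5, Hoxc6, Hoxc9 and Hoxc10 differed by -7.84 ± 0.24, -9.54 ± 0.06, -3.80 ± 0.20, -8.23 ± 0.06 and -5.67 ± 0.15. With a level of 4 used for S5 cells, Hoxb2 and Hoxc6 differed by only -1.71 and -1.75.

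Within the other clusters the sign changed along the chromosome. Hoxd3, Hoxd8 and Hoxd9 were lower in S5 cells, with differences of -4.92 ± 0.12, -9.56 ± 0.28 and -9.44 ± 0.43, while Hoxd10 and Hoxd13 were higher. Hoxa4 was lower, with a difference of -1.51 ± 0.21, Hoxa3 and Hoxa5 differed by -0.28 ± 0.20 and 0.38 ± 0.15 and were not called, and Hoxa9 to Hoxa11 were higher. Hoxa2 and Hoxd11 lay in the low mode in S5 and KO cells, as did Hoxa13 and Hoxc13, which were called all the same. The WT means of Hoxd11, 6.64 ± 0.17, Hoxc13, 5.67 ± 0.72, and Hoxc10, 10.32 ± 0.13 (SD, n = 4), were above both. So were those of Hoxd10, Hoxa2, Hoxa3 and Hoxa5.

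**Figure D3:**
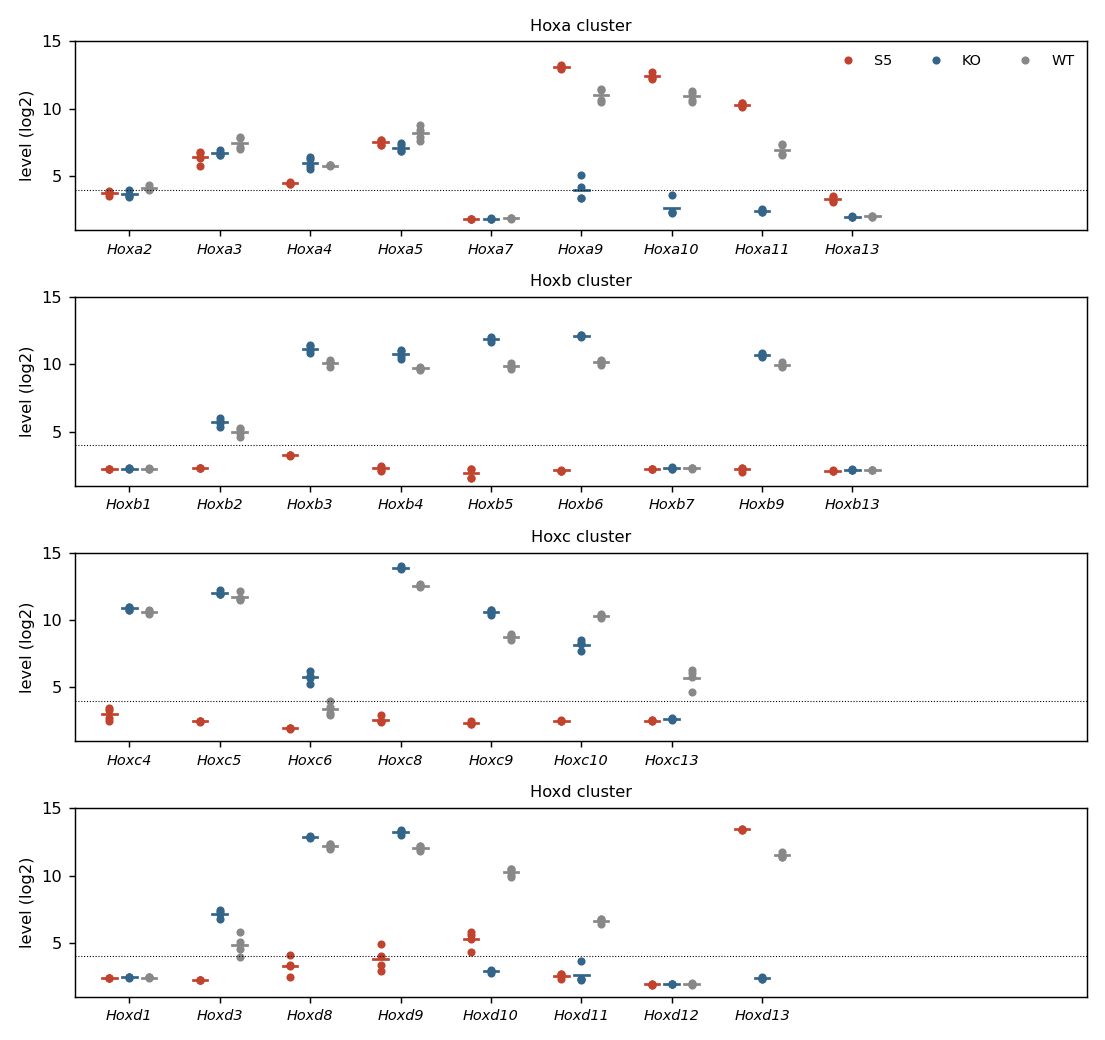
Levels on the log2 scale (y axis) of the 33 measured Hox genes in the 4 clusters, with a point per array and a line at the mean of each genotype. Every Hoxb and Hoxc gene lies below the dotted bound at 4 in S5 cells, while Hoxa9, Hoxa10, Hoxa11 and Hoxd13 are high in S5 cells and near or in the low mode in KO cells.

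Other patterning factors were divided between the genotypes. Of 119 measured, 33 were called higher and 25 lower, beside 18.6% and 15.5% of all genes. At least a 2-fold difference was called for 38.7% of them, beside 12.9% of all genes. Msx1, a homeobox gene of limb and craniofacial mesenchyme, had levels of 12.11, 11.99, 12.78 and 12.75 on the S5 arrays, against 2.94, 3.02, 2.52 and 2.44 on the KO arrays. Pax1, a paired-box gene of the sclerotome and shoulder, had levels of 2.51, 2.07, 2.57 and 2.4997 on the S5 arrays, against 12.72, 12.43, 12.27 and 12.68 on the KO arrays. For each the arrays of 1 genotype lay wholly in the low mode, so S5 cells were at least 339-fold higher for Msx1 and at least 368-fold lower for Pax1 (difference -10.11 ± 0.15, adjusted p = 1.44e-07). Tfap2a and Tfap2b, AP-2 factors of the neural crest and face, rose by 8.99 ± 0.15 and 9.38 ± 0.05, and Lmx1b, which sets dorsal fate in the limb, by 7.73 ± 0.04. Pax3, a gene of the neural crest and muscle precursors, and Lhx8, a gene of oral mesenchyme and forebrain, differed by -9.33 ± 0.12 and -9.22 ± 0.09.

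The fibroblast label was checked against markers. Type I collagen chains and vimentin, chosen after their values were seen, stood at about the same level in both genotypes: Col1a1 averaged 14.78 ± 0.04 in S5 cells and 14.73 ± 0.04 in KO cells, Col1a2 14.67 ± 0.02 in S5 cells and 14.71 ± 0.06 in KO cells and Vim 14.90 ± 0.06 in S5 cells and 14.91 ± 0.05 in KO cells (SD, n = 4 each), and none was called. Fn1, fibronectin, chosen in the same way, was called with a difference of -0.09 ± 0.02. Of 25 measured fibroblast markers, 4 were called higher and 8 lower, beside 18.6% and 15.5% of all genes. At least a 2-fold difference was called for 6 of the 25, beside 12.9% of all genes. However, 24 of the 25 were above the low mode, where 53.8% of genes were called and 20.4% differed at least 2-fold. Besides Thy1, the receptor gene Cd44 differed by -2.92 ± 0.07, the protease gene Fap by -4.67 ± 0.24, the proteoglycan gene Dcn by -3.03 ± 0.17 and Pdgfra by -1.77 ± 0.12, while the microfibril gene Mfap5 rose by 4.65 ± 0.16. In a bulk sample, fewer cells of a type and less RNA per cell cannot be told apart.

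Cartilage and bone markers were higher in S5 cells in 8 of 21 measured genes and lower in 3, with 47.6% at least 2-fold apart, beside 12.9% of all genes. Col2a1, the main collagen of cartilage, had levels of 11.19, 10.95, 11.16 and 11.02 on the S5 arrays, against 3.31, 3.33, 3.33 and 3.29 on the KO arrays, at least 135-fold higher in S5 cells (difference 7.76 ± 0.06, adjusted p = 1.07e-08). Col10a1, of hypertrophic cartilage, rose by 6.44 ± 0.24, Comp, a cartilage matrix protein, by 5.25 ± 0.24, Runx3, a factor of cartilage maturation, by 6.48 ± 0.09, and Dmp1, a protein of mineralising matrix, by 2.33 ± 0.09. Phex, an endopeptidase of bone cells, differed by -3.45 ± 0.19. Of 40 collagen chains 6 were higher and 10 lower, beside 18.6% and 15.5% of all genes, and 8 of the 40 differed at least 2-fold, beside 12.9% of all genes. Col6a3 differed by -3.02 ± 0.14.

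The wider matrix changed in both directions. Of 83 matrix glycoproteins and proteoglycans, 31 were called higher and 27 lower, and 43.4% differed at least 2-fold, beside 12.9% of all genes. Of the 83, 67 were above the low mode, where the share at least 2-fold apart was 20.4%. Cilp and Cilp2, proteins first named from cartilage, rose by 5.80 ± 0.33 and 6.10 ± 0.15, and Mfap2, a microfibril protein, differed by -6.46 ± 0.19. Of 34 metalloproteases and inhibitors, 8 were higher and 11 lower, and 35.3% differed at least 2-fold: Adamts20 and Adamts3 rose by 7.17 ± 0.10 and 4.89 ± 0.24, and Mmp13, a collagenase, and Mmp23 differed by -3.17 ± 0.21 and -3.9998 ± 0.29. Smooth muscle contractile genes were higher in 13 of 26 and lower in 3, with 38.5% at least 2-fold apart. Among them were Actg2 (3.29 ± 0.21), Lmod1 (2.62 ± 0.06), Acta1 (5.44 ± 0.27) and Myh11 (4.64 ± 0.16).

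**Figure D4:**
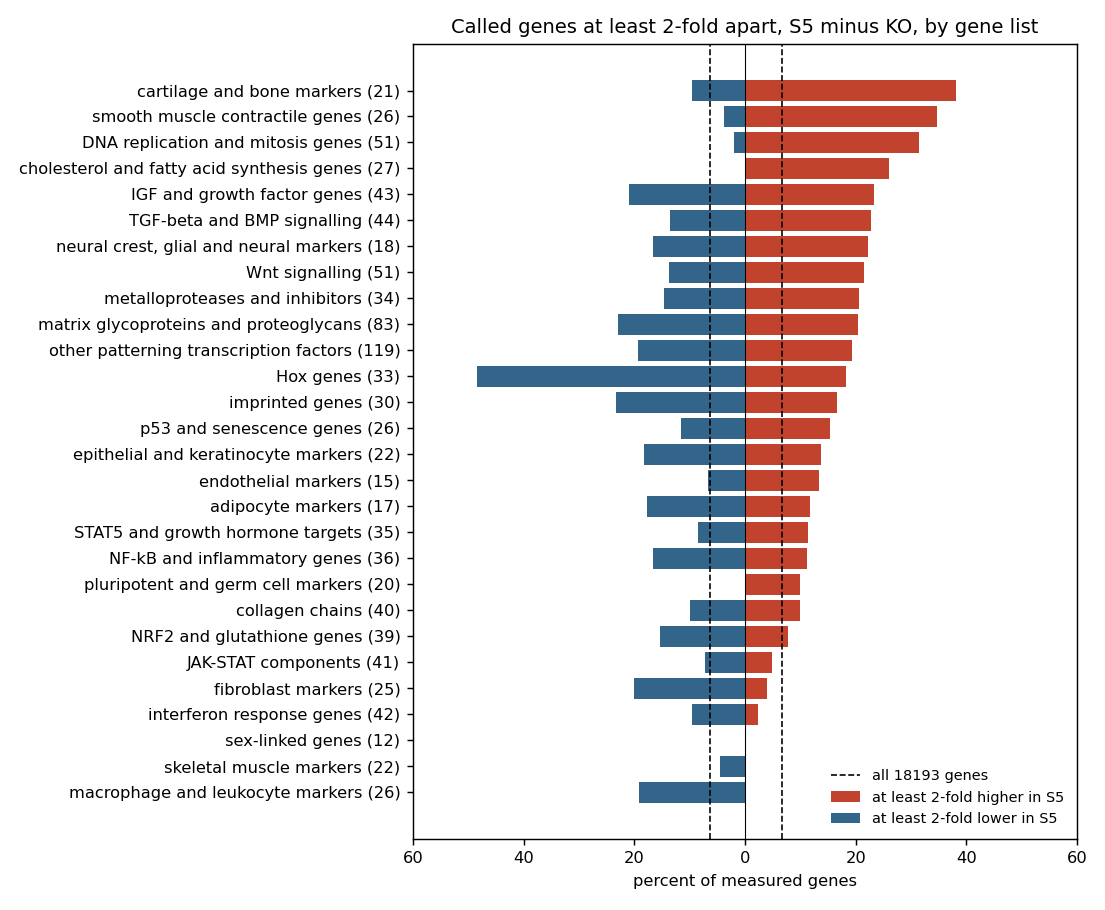
Percent of the measured genes of each list (number in brackets) that were called at least 2-fold higher in S5 cells (red, right) or lower (blue, left). Dashed lines give the shares over all 18193 genes, 6.59% higher and 6.27% lower. The bar for Hox genes reaches farthest to the lower side.

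Signalling genes followed no common direction. Of 51 Wnt genes, 12 were called higher and 11 lower, beside 18.6% and 15.5% of all genes, and 35.3% differed at least 2-fold, beside 12.9% of all genes. Lgr5, a receptor of R-spondins, was at least 36.9-fold lower in S5 cells, with levels of 2.21, 2.22, 2.19 and 2.19 on the S5 arrays, against 9.40, 9.33, 8.99 and 9.10 on the KO arrays, and the inhibitors Dkk3 and Sfrp1 differed by -7.49 ± 0.19 and -3.58 ± 0.16, while the receptor gene Fzd4 and the ligand gene Rspo3 rose by 5.34 ± 0.21 and 3.199 ± 0.08. Of 44 TGF-beta and BMP genes, 13 were higher and 10 lower, and 36.4% differed at least 2-fold. Bmp4, a ligand that induces bone and ventral fates, had levels of 13.71, 13.81, 13.74 and 13.75 on the S5 arrays, against 10.04, 9.93, 9.55 and 9.44 on the KO arrays, a 16.1-fold rise (difference 4.01 ± 0.10, adjusted p = 1.67e-06). Smad6, an inhibitor of BMP signalling, rose by 3.05 ± 0.11, and Fstl3, which binds activin, and Id4 differed by -5.63 ± 0.19 and -3.90 ± 0.35.

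Among 43 growth factor and IGF genes, 13 were called higher and 13 lower, and 44.2% differed at least 2-fold, beside 12.9% of all genes. Fgf5, a fibroblast growth factor, rose by 7.31 ± 0.13, Angpt1, a ligand of the receptor TEK, by 3.47 ± 0.07, and Igf2, an imprinted fetal growth factor, by 4.37 ± 0.15. WT cells had far more Igf2, at 13.36 ± 0.11, than S5 cells, at 7.05 ± 0.15 (SD, n = 4 each). Igfbp3 had levels of 4.80, 4.61, 9.16 and 9.23 on the S5 arrays, against 11.13, 11.35, 10.86 and 10.74 on the KO arrays, so that the untreated and treated S5 arrays differed and both lay below KO (difference -4.07 ± 0.999, adjusted p = 0.0222). Its call was lost without any 1 of the 4 untreated arrays, with adjusted p between 0.0587 and 0.0647. Of 30 imprinted genes, 8 were higher and 10 lower, and 12 of the 30 differed at least 2-fold, with Plagl1 rising by 2.005 ± 0.05 and Dlk1 and Nap1l5 differing by -1.92 ± 0.09 and -4.43 ± 0.22.

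Proliferation and lipid synthesis genes were called higher more often than lower in S5 cells. Of 51 DNA replication and mitosis genes, 25 were called higher and 6 lower, beside 18.6% and 15.5% of all genes. Their median difference was 0.59 over the 49 above the low mode, beside 0.04 over all 11079 genes above it. Of those 11079, 53.8% were called in either direction. Mki67, a marker of cycling cells, had levels of 11.43, 11.33, 11.60 and 11.54 on the S5 arrays, against 9.44, 9.04, 9.47 and 9.52 on the KO arrays (difference 2.11 ± 0.09, adjusted p = 1.23e-05). Its WT mean of 12.59 ± 0.07 was higher than both. The cyclin gene Ccna2 rose by 1.48 ± 0.09 and the kinetochore gene Cenpe by 3.05 ± 0.22. Of 27 cholesterol and fatty acid synthesis genes, all above the low mode, 16 were called higher and 0 lower, with a median difference of 0.67. Among them were Fdps at 1.54 ± 0.06, Lss at 1.31 ± 0.06 and Cyp51 at 1.005 ± 0.03. Cdkn2a, which encodes an inhibitor of the cell cycle and an activator of p53, differed by -1.88 ± 0.08, and the inhibitor gene Cdkn2c and the tumour suppressor gene Rb1 rose by 2.83 ± 0.11 and 1.14 ± 0.07.

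Inflammatory, interferon and antioxidant genes went both ways. Of 36 NF-kB and inflammatory genes, 7 were called higher and 9 lower, and 27.8% differed at least 2-fold, beside 12.9% of all genes. Icam1, a leukocyte adhesion protein, had levels of 2.504, 2.54, 2.33 and 3.36 on the S5 arrays, against 9.49, 9.26, 10.22 and 10.45 on the KO arrays, at least 57.9-fold lower in S5 cells (difference -7.17 ± 0.26, adjusted p = 6.65e-06). Ptges, a prostaglandin E synthase, differed by -8.28 ± 0.49, Vcam1 by -2.94 ± 0.46 and the chemokine gene Cxcl12 by -2.58 ± 0.11. Cxcl5 had levels of 7.36, 7.38, 11.22 and 11.38 on the S5 arrays, against 2.46, 2.56, 6.57 and 6.66 on the KO arrays. Every S5 array was above every KO array, and the treated arrays of each genotype stood above its untreated ones (difference 4.77 ± 0.06, adjusted p = 6.34e-08). The same held for Cxcl1 (4.41 ± 0.51). Of 42 interferon response genes, 5 were higher and 8 lower, and 11.9% differed at least 2-fold, below the 12.9% of all genes. Of 39 NRF2 and glutathione genes, 8 were higher and 13 lower, and 23.1% differed at least 2-fold, among them Gpx3, a secreted peroxidase (-7.21 ± 0.24). Of the 39, 32 were above the low mode, where the share at least 2-fold apart was 20.4%.

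Markers of other cell types that a culture can hold were read in the same way. Of 26 measured macrophage and leukocyte markers, 0 were higher and 5 were lower, 19.2% of the list at least 2-fold apart beside 12.9% of all genes, and the list's mean level ranged from 2.82 to 3.07 on S5 arrays, from 3.51 to 3.72 on KO arrays and from 7.50 to 8.85 on WT arrays. C1qb, a complement gene of macrophages, had levels of 2.23, 2.26, 2.19 and 2.18 on the S5 arrays, against 6.74, 6.50, 7.15 and 6.86 on the KO arrays, and Lyz2 and Cd53 were likewise in the low mode on all 4 S5 arrays. Csf1r, the macrophage growth factor receptor, differed by -2.25 ± 0.58 and lost its call without any 1 of 6 of the arrays. Epithelial markers were higher in 4 and lower in 4 of 22, with 3 at least 2-fold higher and 4 at least 2-fold lower (31.8% together). Krt18 and Cldn1, both from the lower side, were in the low mode in S5 cells (-5.38 ± 0.08 and -5.55 ± 0.24). Of 15 endothelial markers 2 rose and 1 fell, each at least 2-fold: Tek rose by 6.05 ± 0.23, and Flt1, a receptor of vascular growth factor, differed by -5.78 ± 0.67. Of 18 neural crest and neural markers 4 rose and 3 fell, each at least 2-fold (38.9% together). Sox2, a factor of neural progenitors and 1 of the rises, was at 9.29, 9.60, 8.69 and 9.08 on the S5 arrays. On the KO arrays it was at 2.34, 2.29, 2.35 and 2.33. Of 17 adipocyte markers 4 rose and 3 fell (29.4% at least 2-fold apart), with the fatty acid carrier Fabp4 up by 6.51 ± 0.09 and the lipase Lpl differing by -5.29 ± 0.33. The part of other cell types in these differences was not tested.

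Runs of called genes side by side on the chromosomes were counted, where 53.8% of all 11079 genes above the low mode were called. Taking genes above the low mode in RefSeq order, 529 runs of at least 3 neighbours were called all one way, 334 higher and 195 lower. The longest held 11 genes, 10 of them protocadherin beta genes, cell adhesion genes expressed in different sets by individual neurons. All 10 members above the low mode, of 22 measured, were higher in S5 cells, with a median difference of 1.73; Pcdhb9 and Pcdhb3 differed by 4.15 ± 0.15 and 2.73 ± 0.27. A run of 8 neighbours was lower with a median difference of -4.28. It held 7 genes of the epidermal differentiation complex, genes of the outer skin layer, with a median of -4.61, and the neighbouring S100a10, with -0.33. In it Sprr2k had levels of 1.80, 1.84, 1.81 and 1.79 on the S5 arrays, against 11.22, 10.86, 11.35 and 11.14 on the KO arrays, and Lor, the loricrin gene, and Sprr1a differed by -4.78 ± 0.22 and -6.41 ± 0.25. The neighbouring chemokine genes Cxcl5, Ppbp, Cxcl15 and Cxcl1 were all higher, Ppbp by 6.50 ± 0.21. How many such runs the share of called genes alone, or the shifts of whole chromosomes described next, would give was not tested.

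Whole chromosomes shifted by small amounts. Over 8310 genes with a mean level of at least 8, the median S5 minus KO difference of each chromosome was taken relative to that of all these genes. It was 0.32 for chromosome 12, 0.31 for 8, 0.28 for 10, 0.24 for 14, 0.20 for 7 and 0.13 for 15. On the lower side it was -0.23 for chromosome 19, -0.14 for 13, and -0.13 for 9, 6 and 17. The rest lay between -0.12 (chromosome 11) and 0.11 (chromosome 4). On chromosome 8, the median lay between 0.13 and 0.16 on S5 arrays, against -0.20 to -0.15 on KO arrays, and 59.8% of its 460 genes were called higher, beside 28.6% of all 8310. On chromosome 19, 44.7% of 304 genes were called lower, beside 23.3% of all. An exact two-sided permutation test over the arrays gave p = 0.0286, the smallest that 4 against 4 arrays can give, for 19 of 20 chromosomes, and 0.0571 for X (Benjamini-Hochberg adjusted over 20, 0.0301 and 0.0571). A chromosome's median is taken relative to the others, so the 20 values are not independent.

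The shifts spanned their chromosomes and were set against WT cells. With each gene order divided into 4 equal parts, chromosome 8 gave 0.38, 0.29, 0.28 and 0.33, chromosome 12 gave 0.35, 0.28, 0.44 and 0.27, and chromosome 19 gave -0.24, -0.20, -0.24 and -0.26. Against WT cells, S5 cells were higher by 0.37 on chromosome 8, 0.33 on 10, 0.30 on 12, 0.29 on 14 and 0.19 on 15, where KO cells differed from WT cells by 0.07 at most in size. KO cells differed from WT cells by 0.23 on chromosome 19, -0.23 on 3, and -0.21 on 4 and 7. These S5 and KO comparisons share the WT arrays. The number of chromosome copies was not measured, and its part in the shifts was not tested. With chromosome medians removed, 5728 genes above the low mode were called, against 6210 with them.

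**Figure D5:**
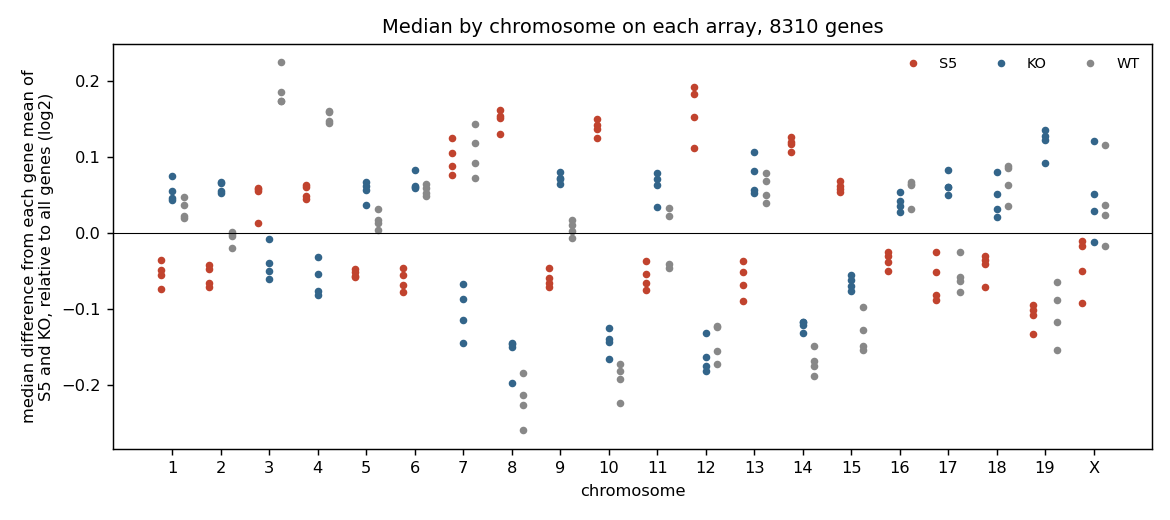
Median by chromosome (x axis) of the difference of each gene from its mean over the 8 S5 and KO arrays, relative to all 8310 genes (y axis, log2), with a point per array. The S5 points lie above all KO points on chromosomes 3, 4, 7, 8, 10, 12, 14 and 15, and below all of them on the other numbered chromosomes, while S5 and KO points overlap on X.

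WT cells were placed between the genotypes for most genes with a called difference of at least 2-fold. For this, means below 4 were set to 4. Of the 2261 such genes above the low mode (20.4% of 11079), the WT mean lay between the S5 and KO means for 59.8%. Among all genes above the low mode the share was 32.1%, but a wide gap between S5 and KO by itself leaves more room between them. The WT mean was nearer to the KO mean for 65.6% of the 2261, against 59.3% among all genes above the low mode. Of the 421 genes at least 16-fold apart, 73.4% were nearer to KO. Genes lower in S5 cells were nearer to KO in 67.8% of cases, against 51.1% of all genes above the low mode with a negative difference. Genes higher in S5 cells were nearer to KO in 63.5%, below the 66.5% of all those with a positive difference. For the 15 largest rises and the 15 largest falls, means were taken as deposited, without that bound. The WT mean was nearer to KO for 4 of the rises, and with the bound Hpgd and Tnn would join them. It was nearer to KO for all 15 falls. Hoxc8, for example, averaged 12.56 ± 0.11 and Thy1 14.16 ± 0.08 in WT cells, beside KO means of 13.87 ± 0.07 and 14.25 ± 0.10 (SD, n = 4 each).

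The genes around Stat5a and Stat5b were read next. Among the nearest genes on either side of Stat5a and Stat5b, 14 were above the low mode, and 8 of them were called, 1 higher and 7 lower, beside 53.8% of all genes above the low mode. At least a 2-fold difference was called for 1, beside 20.4% of all genes above it. That gene was Stat3, chosen after its values were seen, which encodes a related factor and had levels of 9.13, 9.01, 8.68 and 8.48 on the S5 arrays, against 9.76, 9.71, 10.04 and 9.93 on the KO arrays. It differed by -1.03 ± 0.16 (adjusted p = 0.00351), and with the mean of all its probe sets it was not called (adjusted p = 0.0542). That mean takes in probe sets of the low mode. The next Stat3 probe set, above it, differed by -0.75 ± 0.17 (limma over all probe sets, adjusted p = 0.0197).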

How the data were processed

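Total RNA of S5, KO and WT cells was hybridised to Affymetrix arrays. The authors deposited 1 value per probe set and array, made with GCOS and RMA per the submitters' processing notes and read here as log2 levels, since their range fits that scale. The settings are not given in the sources used here. Values with such a low mode compress differences between weak signals. No gene's fold is given within it, but counts of 2-fold differences include 78 genes with both means there.

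Of 45101 probe sets, 34945 with a single gene were kept, leaving out 64 controls, 932 with several genes and 9160 with none. Each of 18193 genes was read from its probe set of highest mean on all 12 arrays, and RefSeq (GRCm38.p6) gave names, order and chromosomes for 18031. Differences were fitted with limma 3.58.1 (R 4.3.3) as hormone plus genotype over the 8 arrays, which left 5 residual degrees of freedom, and p-values were two-sided and adjusted over all genes by the Benjamini-Hochberg method. Separate and interaction differences came from 4 group means. The fit was also run on simulated data with independent noise, which lack shifts shared by whole chromosomes and so cannot vouch for calls under such shifts. Precision is limited by the number of arrays.

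The members, the gene lists, the low bound of 4 and the tests were chosen with earlier results of these data known. Named genes were the 15 largest rises and falls with arrays that do not overlap, without clone, Riken or locus names, 5 genes on each side of the threshold, up to 6 members of each list, the Hox and sex-linked genes, 8 genes of the STAT5 pathway, and members of runs of neighbours. Chromosomes, motifs, neighbours of Stat5a and gene families were added after the data were seen. Alternatives were another probe set rule, centring, quantile normalization, a filter on low levels, other variance priors, array weights, other fits, a replicate block and leaving out each array.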

Additional observations from a re-analysis of the deposited data

Results flagged for a closer look

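In 7 named genes the S5 minus KO difference on growth hormone arrays differed from that on untreated arrays by limma's interaction test. The interaction, growth hormone minus untreated, was 6.11 for Cish (adjusted p = 0.00168), 3.84 for Socs2 (0.00592), 4.93 for Igfbp3 (0.00124), 3.28 for Flt1 (0.00353), 2.24 for Vcam1 (0.0261), 1.21 for Msx1 (0.0129) and -0.70 for Hpgd (0.044). Only Cish changed the direction of its difference, with 4.75 on growth hormone arrays and -1.37 on untreated arrays. Values of Flt1 in untreated S5 cells, of Cish there, and of Msx1 in KO cells lay in the low mode, so that the sizes of these interactions depend on it. Hpgd lay in the low mode on all KO arrays too. Its S5 levels, far above that mode, were 13.49 and 13.52 untreated against 12.75 and 12.82 with the hormone.

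Signals outside the genes tested were also seen. The Stat5a probe set that did not stand for the gene averaged 9.48 ± 0.46 on S5 arrays, against 2.23 ± 0.03 on KO arrays (SD, n = 4 each). Among 10092 probe sets with no single gene, 5 were above 8 on all S5 arrays and below 4 on all KO arrays, and 15 were the other way round.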

How the results depend on the processing

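The count of called genes, 6198, stayed within 1.5 times in 20 of 22 settings and ranged from 5199 to 5910 when 1 array was left out; the share called higher, 54.6%, was 49.3% with arrays centred on their medians. It was 9995 over every probe set on its own, where 34945 were tested, and 10902 with chromosome medians subtracted from all genes, an alternative added after the data were seen, of which 4768 were genes in the low mode that hold no such shift. Restricted to genes above the low mode this gave 5728. Leaving out 1 array moved the untreated count of 4523 to between 2816 and 4638, the growth hormone count of 4803 to between 3398 and 4604, and the interaction count of 114 to between 51 and 132. The interaction count was 205 with 6 group means over all 12 arrays. Replicate numbers were not taken as pairs in the main fit. Deviations of same-numbered arrays correlated at 0.07 between untreated S5 and KO arrays and at -0.06 between treated ones. Between untreated and treated arrays they correlated at 0.08 in S5 cells and at -0.35 in KO cells, and the source of the last value was not tested. With a replicate block the counts were 5798 pooled, 4035 untreated, 4363 with hormone and 47 for the interaction. Of 126 named genes that were called, 6 lost the call in at least 1 of 20 settings: Stat3 with the mean of probe sets, Fn1 with a filter, a trended prior and 4 left-out arrays, Cxcl5 (adjusted p = 0.0521) and Cxcl1 (0.0516) without a hormone term, and Igfbp3 and Csf1r with left-out arrays. Fn1 alone reversed, to 0.019 with chromosome medians subtracted. With the mean of all probe sets, 34 of the 126 differences shrank by more than 1.5 times, to 0.26 of the value at the smallest, which averages in probe sets of the low mode. The share of genes nearer to KO than S5, 65.6%, was 65.4% without macrophage and WT-high genes and 65.0% on untreated arrays. Of 17 named genes not called, 7 gained a call in at least 1 setting: Bcl6 in 4, Jak2 in 3 (adjusted p = 0.00365 and a difference of 0.36 with chromosome medians subtracted), Ghr and Cish in 2 each, and Xist, Hoxa5 and Col1a1 in 1 each. Chromosome medians kept their sign at other minimum levels and with the mean of probe sets, but with that mean the S5 and KO arrays overlapped on chromosome 3 (adjusted p = 0.0602).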

Other observations

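Genes that were present in 1 genotype and absent in the other were counted without a test. S5 cells had a mean of at least 8 while all 4 KO arrays lay in the low mode for 61 genes, and KO cells had a mean of at least 8 while all 4 S5 arrays lay in the low mode for 95. A further probe set of a called gene, where it was above the low mode, had the same sign in 97.7% of 1029 cases.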
